A study of Rattus norvegicus with 40 samples.

Results

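The genes described here encode the proton pump of the lysosome (the V-type ATPase), the cathepsin proteases that work in the acid it makes, the inhibitors cystatin C and cystatin B, and the lysosomal membrane glycoproteins Lamp1 and Lamp2. They were chosen by gene name among the protein coding genes of the hippocampus table, as all Atp6v and Atp6ap genes, the cathepsins, Cst3, Cstb, Lamp1 and Lamp2. This gave 42 genes of 18409 protein coding genes and 23485 genes in that table, by a rule that uses names and no measured value. Of the 42, 25 carry Atp6 names and are called pump genes below, the accessory genes and Atp6v1fnb, a gene named as a neighbour of a pump gene, included. The other 17, the cathepsins, cystatins and Lamp genes, are called degradative genes. The cerebellum table held 41 of them, without Ctsq.

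The samples were total RNA of rat brain (Rattus norvegicus), 12 months after exposure. In each of 4 regions (amygdala, hippocampus, anterior cortex and cerebellum) 5 libraries came from blast-exposed and 5 from sham rats, 40 libraries in all. For strain, age, sex and the settings of the blast nothing was used here, and no group carried another labelled treatment. The titles number the libraries 4, 8, 22 and 88 for blast, with 1 more titled Hip_666, Amy_666, AC_666 and Cer666, and 11, 13, 14, 15 and 33 for sham. No label ties a number to 1 animal, so the p-values measure only the spread between these samples. One amygdala sham library has the number 12 in its title and 13 in its table and is called the unnumbered library.

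The V-type ATPase is a rotary pump. Its V1 sector, on the cytosolic side, splits ATP, and its V0 sector, in the membrane, carries protons into lysosomes, endosomes and synaptic vesicles. In the brain the pump therefore serves both degradation of proteins and the loading of transmitter. Cathepsins are made as inactive precursors and mature in acid compartments, and cystatins are tight-binding inhibitors of the cysteine cathepsins. Many lysosomal genes carry an E-box in the promoter that is read by the transcription factor TFEB and its relatives.

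Promoter windows of 250 bases before to 50 bases after the gene's start were at hand for 33 of the 42 genes (RefSeq, build GRCr8). The 6-letter E-box CACGTG, which reads the same on both strands, was in 6 of the 33 windows, or 18.2%, against 6.42% of all 33469 windows. Its 8-letter form TCACGTGA, which contains the first, was in 4 windows (Atp6v0d1, Atp6v0e1, Ctsd and Lamp1), or 12.1%, against 0.777% of all windows. The stretches before the start that hold a match are shown on the gene's strand, to let the members with an E-box be set beside their values below, with the match in capitals.
Atp6v0d1 (chr19:50357274-50357321, minus strand): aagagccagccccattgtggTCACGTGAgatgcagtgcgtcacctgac
Ctsd (chr1:206968822-206968852, minus strand): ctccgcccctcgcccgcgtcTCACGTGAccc
Lamp1 (chr16:83075075-83075149, minus strand): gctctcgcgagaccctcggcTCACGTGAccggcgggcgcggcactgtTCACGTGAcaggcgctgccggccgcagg
Cstb (chr20:10247200-10247241, minus strand): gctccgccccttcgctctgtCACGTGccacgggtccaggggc
Ctsf (chr1:211582000-211582045, plus strand): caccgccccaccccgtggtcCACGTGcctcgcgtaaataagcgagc
The match began 53 bases before the start in Atp6v0d1, 11 in Ctsd, 22 in Cstb and 149 in Ctsf. Lamp1 had 2 matches, at 66 and 39 bases before the start. The match of Atp6v0e1 began 23 bases after the start. A match is a string of letters and was not tested as a binding site.

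Library totals ran from 11268097 to 37128383 counts, with medians of 12740347 in the anterior cortex to 14544365.5 in the hippocampus. Levels are given as CPM, each count relative to its TMM-scaled library total, and differences are log2 of blast over sham with the standard error (SE) of edgeR's quasi-likelihood fit. In bulk tissue fewer cells of a type and less RNA per cell cannot be told apart. Some libraries stood apart. In the anterior cortex, blast 8 and sham 11, 13 and 15 held fewer reads on short genes: the mean log2 deviation of genes under 1000 bases minus that of genes of 4000 bases or more was -0.61, -0.29, -0.18 and -0.59 in these, against 0.26 to 0.30 in the other 6. In the hippocampus sham 14 stood at 0.55 on the same measure, and blast 8, Hip_666 and sham 11 were high in choroid plexus genes, as were blast 22, blast 8 and sham 33 in the cerebellum. The region labels were set against marker genes by the sham means of each region. All 12 cerebellum markers were highest in the cerebellum, 6 of 9 hippocampus markers in the hippocampus and 5 of 8 cortical layer markers in the anterior cortex. Of 8 amygdala markers, 2 were highest in the amygdala: Dlk1 (11.7 CPM, and 3.09 in the anterior cortex) and Sim1 (1.70 CPM, and 0 in the anterior cortex). Rspo2 and Cdh9 were higher in the hippocampus and Etv1, Prkcd and Cyp26b1 in the cerebellum, so this list does not set the amygdala libraries apart.

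In the sham libraries the most abundant member per length was Cst3, the gene of the secreted inhibitor cystatin C, at 2045 ± 278 CPM per kb (SD, n = 5) in the amygdala and 1531 ± 193 in the cerebellum. Atp6v0c, which encodes the ring subunit that carries the protons, was the second at 529 ± 38.0 in the amygdala, 605 ± 154 in the hippocampus, 324 ± 138 in the anterior cortex and 423 ± 45.4 in the cerebellum. These spreads overlap between amygdala and hippocampus. Ctsb, Ctss and Atp6v1b2 followed, with means over all sham libraries of 219, 208 and 180 CPM per kb. Among the members with a mean under 1 CPM per kb were Ctsw, a cathepsin of lymphocytes, Ctse, Atp6v1b1 and Atp6v1e2.

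Where a pump subunit has several genes, 1 gene carried most of the level per length in every region. In the amygdala of sham rats Atp6v1b2 made up 99.7 ± 0.07% (SD, n = 5) of the B subunit, Atp6v1c1 95.4 ± 1.3% of C, Atp6v0a1 91.9 ± 0.77% of a and Atp6v0e2 94.9 ± 1.3% of e. Atp6v1b1, known from kidney and inner ear, and Atp6v0d2, known from osteoclasts, were at the low end of their pairs. Subunit G was the exception, with Atp6v1g2, the form of neurons, at 55.3 ± 1.9% and Atp6v1g1 at 44.7 ± 1.9%. In blast libraries of the amygdala Atp6v1g2 stood at 58.4 ± 3.2%, and the ranges of the groups overlapped.

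**Figure D1:**
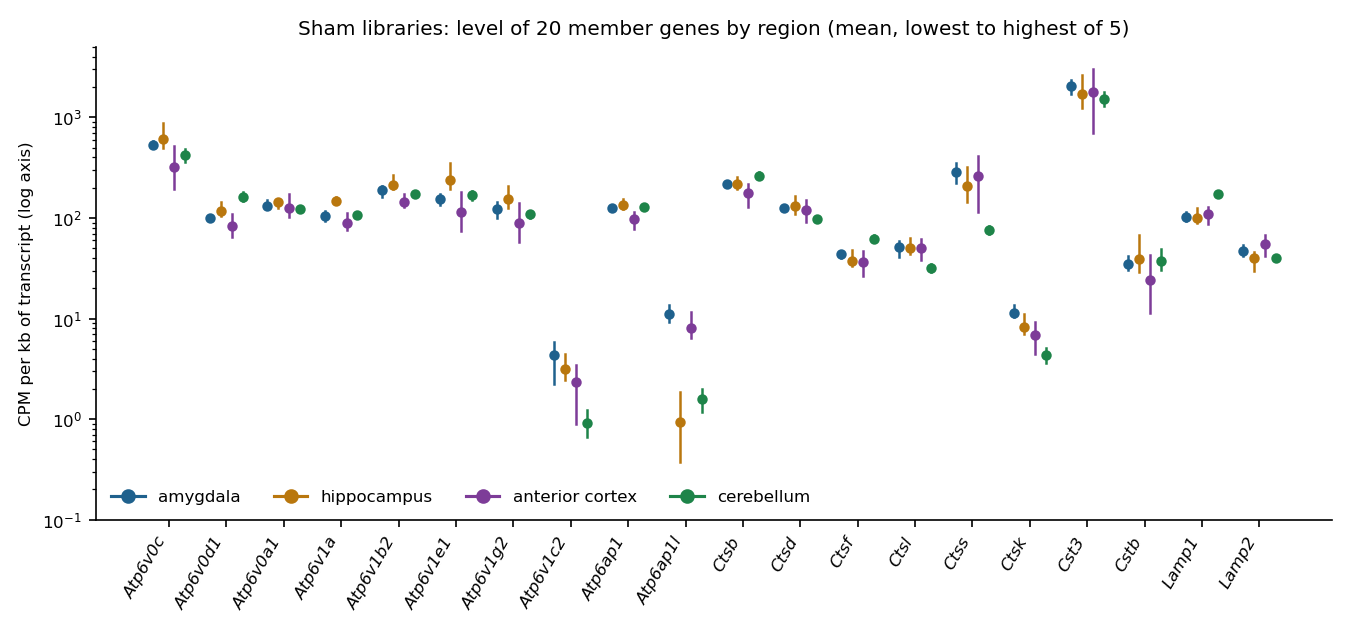
Level of 20 members in the sham libraries of 4 regions, in CPM per kb of transcript on a log axis. Points are means and lines run from the lowest to the highest of 5 libraries. Cst3 stands above all others, Ctss is lowest in the cerebellum, and Atp6ap1l is low in hippocampus and cerebellum.

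Regional differences were read in the sham libraries. An F test over the 4 regions in sham libraries (edgeR, Benjamini-Hochberg adjusted p under 0.05) called 30 of 39 members, against 74.5% of all genes, a share near that of the members. Ctss, the cathepsin of microglia, was lower in the cerebellum than in the amygdala by 1.92 ± 0.26 on the log2 scale (-1.92, adjusted p = 1.88e-06), and Ctsk, Ctsc, Ctsh, Ctsl and Ctsz were lower there too (-1.40, -1.68, -0.82, -0.72 and -0.77). The summed microglia markers were lower in the cerebellum in the same way, at 142 to 168 CPM in its sham libraries against 402 to 572 in those of the amygdala. Ctsf and Ctsb went the other way, 0.51 ± 0.13 and 0.29 ± 0.11 higher in the cerebellum (adjusted p = 0.00233 and 0.0302). The call of Ctsb was lost without the sham libraries numbered 11, 13 or 15, without the unnumbered one and with the title number as a replicate block (adjusted p = 0.0929, 0.0544, 0.0574, 0.0610 and 0.0568). In all 2 members were called higher and 15 lower in the cerebellum, where 27.8% and 30.8% of all genes were. The cerebellum table uses shorter gene models for Lamp1 (1991 against 4019 bases), Atp6v0d1 (1580 against 2432) and Atp6v1a (4069 against 4245), so the values of these 3 across that border also hold a change of model.

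In sham rats 4 genes of the V1 sector were higher in the hippocampus than in the amygdala. Atp6v1a, the catalytic subunit, stood at 0.47 ± 0.09 (adjusted p = 0.000838), Atp6v1c1 at 0.42 ± 0.10 (0.00417), Atp6v1d of the rotor at 0.41 ± 0.12 (0.0203) and Atp6v1e1 of the stalk at 0.62 ± 0.20 (0.0271). These were the 4 members called higher, against 9.14% of all genes. The 2 called lower, against 11.5% of all genes, were Ctsh (-0.57 ± 0.18) and Atp6ap1l, a relative of the accessory subunit Atp6ap1. Without the sham libraries numbered 14, of which the hippocampus library is rich in short genes, the calls of Atp6v1d and Atp6v1e1 were lost (adjusted p = 0.0612 and 0.0649). Without number 33 those 2 and Ctsh were lost (0.105, 0.0931 and 0.126), without number 13 Atp6v1e1 and Ctsh (0.0530 and 0.0879), without number 11 Ctsh (0.0934), and with the replicate block Atp6v1e1 (0.0773).

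Atp6ap1l differed most between regions among the members tested. Its sham mean was 11.1 ± 1.8 CPM per kb (SD, n = 5) in the amygdala and 8.04 ± 2.0 in the anterior cortex, against 0.944 ± 0.67 in the hippocampus and 1.59 ± 0.33 in the cerebellum. Relative to the amygdala this was -3.53 ± 0.34 in the hippocampus (adjusted p = 1.22e-07) and -2.80 ± 0.32 in the cerebellum (2.2e-07), while the anterior cortex did not pass the test (-0.47 ± 0.29, 0.25). Atp6v1c2 and Atp6v0a4, minor forms of the C and a subunits, were also lower in the cerebellum (-2.23 ± 0.32 and -1.25 ± 0.18).

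In the anterior cortex 9 members were called lower than in the amygdala and none higher, where 10.3% and 11.4% of all genes were. Of the 9, 8 carry Atp6 names, among them Atp6ap2, the accessory subunit also known as the prorenin receptor, at -0.57 ± 0.12 (adjusted p = 0.00227) and Atp6v0c at -0.72 ± 0.21 (0.0194). This count moved with the libraries left out. Without anterior cortex sham 11, 13 and 15 and hippocampus sham 11 no member was called lower. Only sham 14 and 33 were then left in the anterior cortex, so fewer libraries and the libraries' own values cannot be told apart. With each library's length trend removed 8 members were called lower. Leaving out single sham numbers gave 2 without number 11, 4 without 13, 4 without 15, 6 without the unnumbered one, 9 without 33 and 17 without 14.

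The blast comparison in the amygdala gave small differences, mostly above 0, in the pump genes, and the smallest member p in a protease inhibitor, cystatin B. Of 37 members tested, 26 were higher and 11 lower in blast, with a median of 0.06 on the log2 scale against -0.00 over all genes. Among pump genes 17 of 22 were higher (median 0.08), among degradative genes 9 of 15 (median 0.03). No member was called by edgeR at an adjusted p under 0.05, nor was any of the 15280 genes tested (0%). At an unadjusted p under 0.05, 4 members were higher and 0 lower, against 4.22% of all genes higher and 4.45% lower. DESeq2 called 1 member, where it called 0.0852% of all genes, and limma-voom called 0 members and 0% of all genes. The 5 members not tested for low counts were Atp6v0d2, Atp6v1e2, Atp6v1fnb, Ctsq and Ctsw.

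Cstb encodes cystatin B, an inhibitor of cysteine cathepsins inside cells whose loss causes a progressive myoclonus epilepsy (640 bases, chromosome 20 from 10966331 to 10968432 in the tables, with no build named). In amygdala its level was 27.8, 32.3, 31.4, 30.0 and 34.3 CPM in blast libraries 4, 8, 22, 88 and Amy_666. The sham libraries had 26.3 CPM in number 11, 19.3 in 14, 20.9 in 15, 22.5 in 33 and 21.6 in the unnumbered one. All 5 blast values lay above all 5 sham values, with sham 11 the nearest. The difference was 0.49 ± 0.09 (adjusted p = 0.288, edgeR). DESeq2 called it at an adjusted p of 0.00202, and over the 17 alternatives the difference stayed between 0.44 and 0.56 while the adjusted p ran from 0.00202 to 1.00.

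Atp6v0c was the other member with all 5 blast values above all 5 sham values, which makes 2 of 37 against 0.785% of all genes. Its blast libraries had 750, 767, 662, 714 and 685 CPM in numbers 4, 8, 22 and 88 and in Amy_666. Its sham libraries had 657, 572.5, 645 and 559 in numbers 11, 14, 15 and 33 and 596 in the unnumbered one. The lowest blast value, number 22, stood just above the highest sham value, number 11. The difference was 0.24 ± 0.06 (adjusted p = 0.459), and the authors' deposited table, where 21 members had an adjusted p, gave Atp6v0c a log2 fold change of 0.22 with an adjusted p of 0.0372, the single member called there, where 0.811% of the 2096 genes with an adjusted p were. For Cstb the authors' deposited table gave 0.39 and no adjusted p. The gene lies on chromosome 10 from 13537033 to 13542077, on the minus strand, with 1151 bases of transcript.

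Atp6v1g2, the stalk subunit of neurons, ranged from 257 to 306 CPM in blast and from 199 to 290 in sham libraries of the amygdala (0.23 ± 0.09, adjusted p = 0.51). Its partner in the stalk, Atp6v1e1, ranged from 213 to 245 and from 177.5 to 229 CPM (0.18 ± 0.07, adjusted p = 0.53). Both groups overlapped for each. In the catalytic head Atp6v1a was at 0.04 ± 0.08 and Atp6v1b2 at 0.08 ± 0.08, and Atp6v0a1, the large membrane subunit that anchors the stalk, at 0.04 ± 0.07. In the V0 sector 6 of 8 genes were higher in blast. In the V1 sector 4 of 5 head and rotor genes (Atp6v1a, Atp6v1b1, Atp6v1b2, Atp6v1d and Atp6v1f) and 5 of 6 stalk genes were.

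Among the abundant proteases of the amygdala, Ctsd, the main aspartic protease of lysosomes, ranged from 243.5 to 248.7 CPM in blast and from 238.0 to 262.0 in sham libraries (-0.03 ± 0.05), and Ctsb from 428 to 438 and from 395 to 445 (0.06 ± 0.05). Ctss stood at -0.09 ± 0.11 and Ctsl at 0.07 ± 0.10. Lamp1 and Lamp2, which line the lysosomal membrane, were at -0.04 ± 0.06 and -0.00 ± 0.08. Of the 2 cystatins, Cst3 was higher in blast by 0.18 ± 0.09 (adjusted p = 0.592), with 1561 to 2004 CPM against 1338 to 1810 and overlapping groups. Microglia markers, 6 of 13 higher, had summed levels of 438 to 520 CPM in blast and 402 to 572 in sham libraries. Neuron markers were higher in 8 of 12 cases, astrocyte markers in 2 of 10, oligodendrocyte markers in 1 of 11, choroid plexus markers in 1 of 12, meninges and fibroblast markers in 9 of 10 and endothelium markers in 2 of 7. Of the markers of neighbouring tissue, 1 of 10 for the striatum and 3 of 8 for the cortical layers were higher (medians -0.21 and -0.10), with summed levels of 488 to 634 CPM in blast and 551 to 700 in sham for the striatum and 267 to 322 and 285 to 313 for the cortical layers. Summed levels were 5632 to 7397 CPM in blast and 5832 to 7912 in sham for astrocyte markers, 3793 to 4271 and 3998 to 5116 for oligodendrocyte markers, and 334 to 722 and 297 to 582 for meninges and fibroblast markers. Choroid plexus markers varied widely in both groups, with summed levels of 38.1 to 506 CPM in blast and 21.4 to 514 in sham (median difference -0.76). The part of these cells and tissues in the differences above was not tested.

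**Figure D2:**
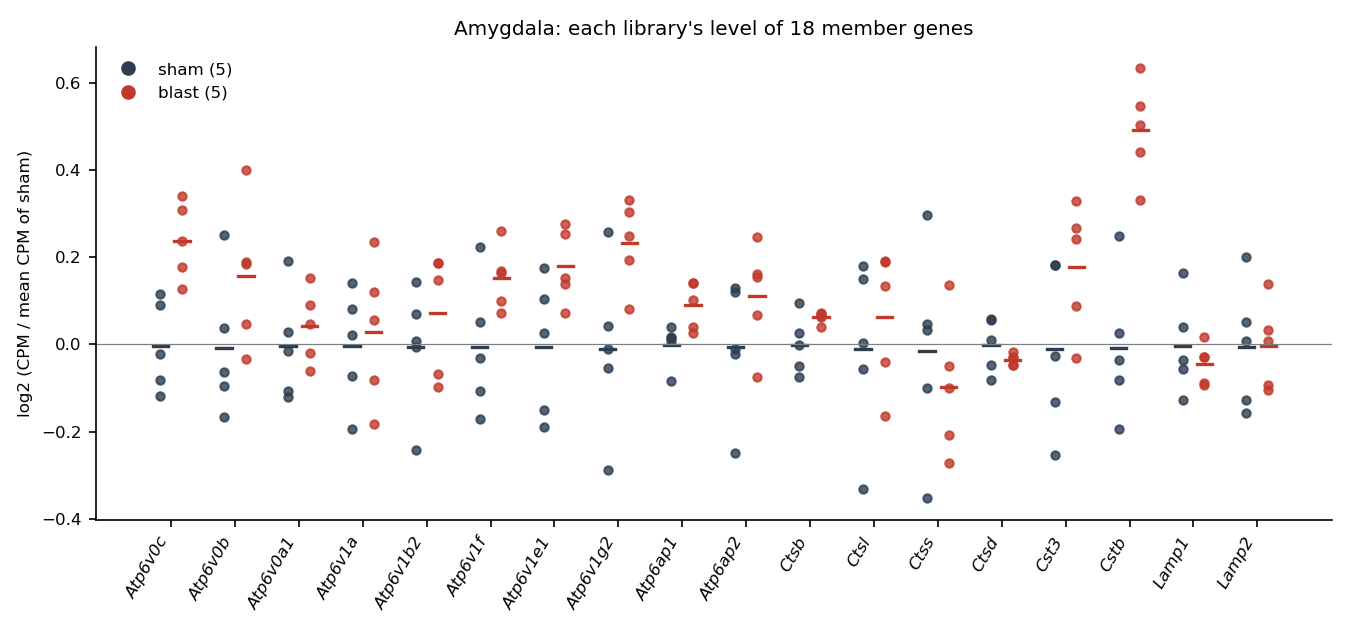
Level of 18 members in each amygdala library as log2 of CPM over the mean of the sham libraries, with sham in dark blue and blast in red. Short bars are means. The 5 blast libraries lie above the 5 sham libraries for Cstb and for Atp6v0c, and the groups overlap for the other 16.

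The amygdala differences varied with gene length. Of the 14 tested members under 1500 bases, 12 were higher in blast (median 0.11), of the 17 from 1500 to under 3000 bases also 12 (0.07), and of the 6 of 3000 bases or more, 2 (-0.05). All genes went the same way with smaller values, with 60.6%, 53.9% and 37.2% higher in the 3 classes (medians 0.05, 0.01 and -0.04). After each library's trend with length was removed, 25 of 37 members were higher, the median was 0.04, and Cstb and Atp6v0c stood at 0.44 ± 0.08 and 0.19 ± 0.06.

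**Figure D3:**
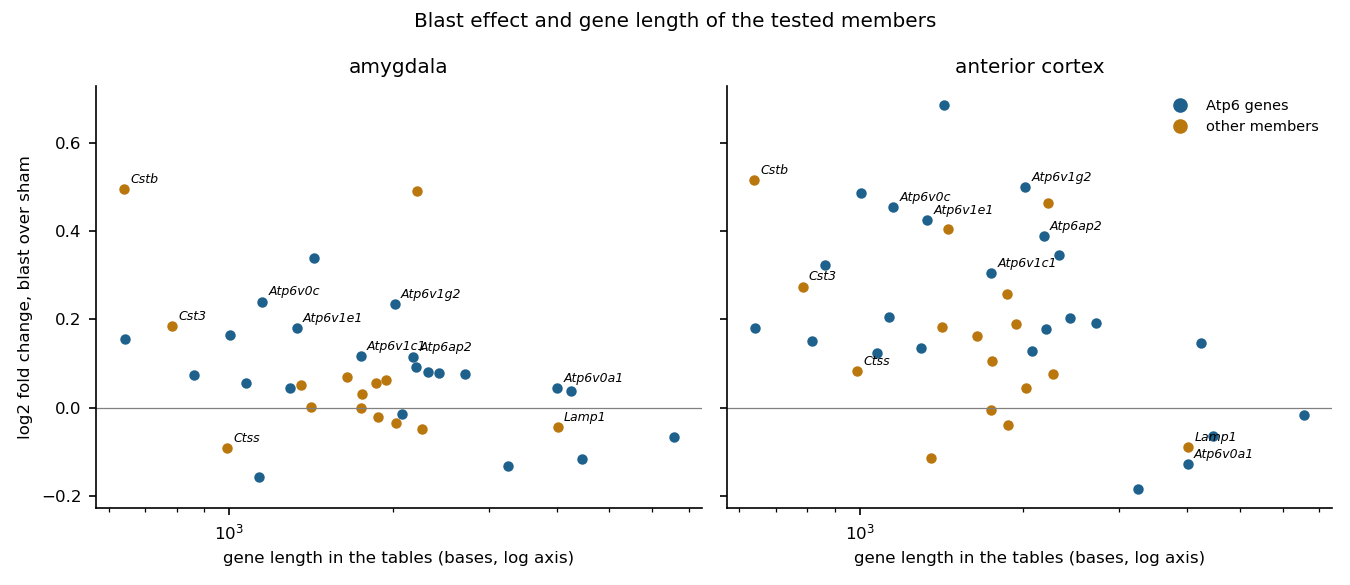
Difference between blast and sham (log2 fold change) of each tested member against its gene length in bases, on a log axis, for amygdala and anterior cortex. Blue points are Atp6 genes and ochre points the other members. Of the members of 3000 bases or more, such as Lamp1, 2 of 6 lie above 0 in the amygdala and 1 of 6 in the anterior cortex. Of those under 1500 bases 12 of 14 and 15 of 16 do, and single short and long members overlap.

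In the hippocampus the medians of the pump genes and of the degradative genes had opposite signs. Of 23 pump genes tested, 6 were higher in blast (median -0.07), and of 16 degradative genes 12 were (median 0.08). None of the 5 V1 head and rotor genes and 6 V1 stalk genes tested was higher. The median of all 39 was -0.03. No member was called by edgeR, DESeq2 or limma-voom, edgeR and limma-voom called 0% of the 15059 genes and DESeq2 0.00664%, and no member had an unadjusted p under 0.05, where 0.97% of all genes were higher and 0.916% lower at that level. The 2 Lamp and 3 aspartic and serine cathepsin genes were all higher, with Ctsd at 0.31 ± 0.21 and Lamp2 at 0.23 ± 0.13 (adjusted p = 0.998 for both). No member had all blast libraries above all sham libraries, against 0.126% of all genes.

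This pattern moved with a few libraries. Ctsd had 459 and 413 CPM in blast 8 and Hip_666 and 337 in sham 11, and 216 to 287 in the other 7, and Ctsc, which activates granule proteases, had 20.5, 19.6 and 16.5 in the same 3 libraries and 2.85 to 5.90 in the rest. These are the 3 libraries high in choroid plexus genes, a list of which 12 of 12 tested members were higher in blast, with summed levels of 56.3 to 8945 CPM in blast and 17.5 to 5370 in sham. Ependyma markers were higher in 8 of 8 cases (median 0.47), meninges and fibroblast markers in 10 of 10 (0.48) and oligodendrocyte markers in 11 of 11 (0.18), with summed levels of 7315 to 10611 CPM in blast and 4690 to 9986 in sham for the last. The part of these cells in the differences was not tested. Without the 3 libraries Ctsd stood at 0.03 ± 0.12 and Lamp2 at 0.14 ± 0.15, and 9 of 16 degradative genes were higher (median 0.00).
Both groups of genes moved with sham 14, whose Atp6v0c level was 970 CPM against 566 to 694 in the other 4 sham libraries, and whose Cstb level was 41.8 against 17.99 to 22.5. Without sham 14, 14 of 23 pump genes (median 0.02 in place of -0.07) and 16 of 16 degradative genes (0.20 in place of 0.08) were higher in blast, and the median of all members was 0.08 in place of -0.03. With the length trend removed 16 of 39 members were higher and the median was -0.07.

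The anterior cortex had the largest share of members higher in blast, 31 of 39, with a median of 0.18 against -0.00 over all genes. Atp6ap2 was at 0.39 ± 0.13, with 140 to 176.5 CPM in blast and 107 to 159 in sham, and Atp6v1c1 at 0.30 ± 0.13 (adjusted p = 0.799 for both). These 2 were the members with an unadjusted p under 0.05, and 0 members were lower at that level, where 1.88% of all genes were higher and 2.43% lower. No member was called by edgeR, DESeq2 or limma-voom, and all 3 tools called 0% of all genes (14918 by edgeR). No member had all blast libraries above all sham libraries, against 0.375% of all genes. The highest of the 5 sham libraries for Atp6ap2 was number 14. By length, 15 of 16 members under 1500 bases, 15 of 17 from 1500 to under 3000 bases and 1 of 6 of 3000 bases or more were higher, where 61.9%, 56.5% and 34.5% of all genes were. With each library's length trend removed, 30 of 39 members were higher and the median was 0.11.

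Of the 4 anterior cortex libraries that stood apart 3 were sham, and the pump genes were lowest in those 3 and not in blast 8. The mean pump gene deviation was -0.40, -0.13 and -0.24 in sham 11, 13 and 15, against 0.16 in sham 14 and -0.06 in sham 33, and in the blast libraries it was 0.00 in number 8 and 0.07 to 0.24 in the other 4. Cstb had 6.37 CPM in blast 8 and 6.86, 8.28 and 7.09 in sham 11, 13 and 15, and 23.1 to 25.2 CPM in all the other libraries of both groups. Leaving out the 4 libraries kept only sham 14 and 33 in the sham group. Cstb then stood at -0.05 ± 0.10 in place of 0.51, and Atp6v0c at 0.10 ± 0.12 in place of 0.45. Atp6ap2 stood at 0.22 ± 0.14 in place of 0.39, and Atp6v1c1 at 0.10 ± 0.12 in place of 0.30. The median of all members was then 0.03, with 17 of 23 pump genes and 6 of 16 degradative genes higher.

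**Figure D4:**
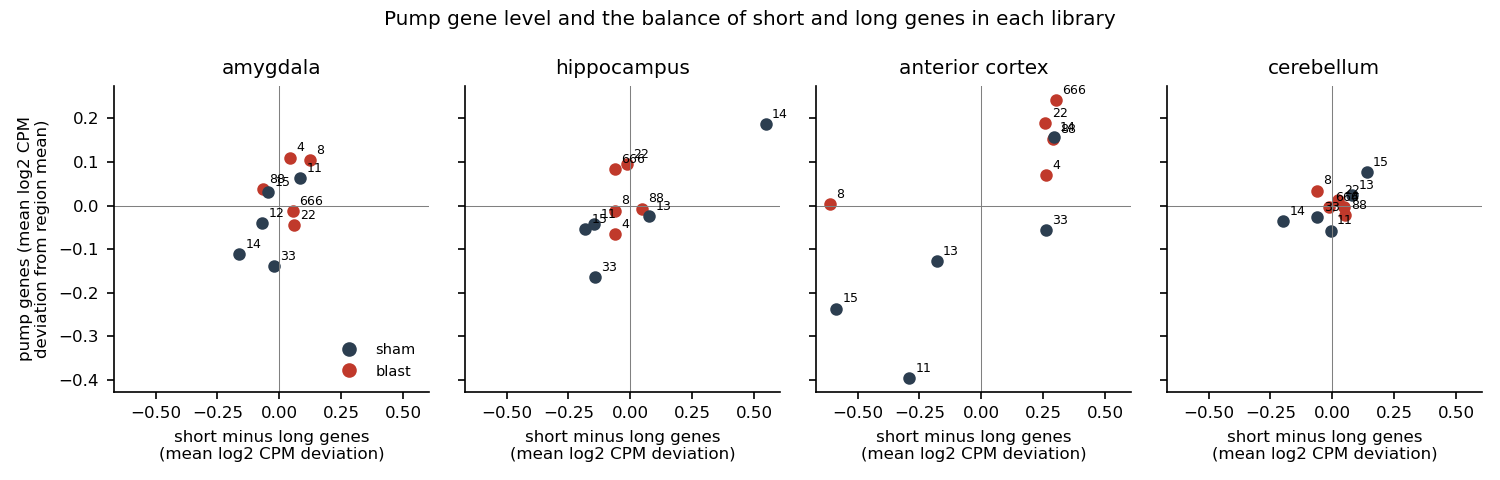
Mean log2 CPM deviation of the pump genes in each library from its region's mean (vertical) against the balance of short and long genes (horizontal, mean log2 deviation of genes under 1000 bases minus that of genes of 4000 bases or more). Numbers are those of the titles, with 12 for the unnumbered amygdala library. In the anterior cortex sham 11, 13 and 15 are low on both axes, and in the hippocampus sham 14 is high on both.

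In the cerebellum the pump genes were close to 0, with 12 of 23 higher (median 0.01), while 13 of 16 degradative genes were higher (median 0.08). Ctsz, a carboxypeptidase of lysosomes, ranged from 15.1 to 20.4 CPM in blast and from 12.95 to 15.39 in sham (0.27 ± 0.10, adjusted p = 0.96). Ctsc was at 0.92 ± 0.36 and Atp6v0e1, a minor form of the small membrane subunit e, at 0.27 ± 0.11 (adjusted p = 0.999 for both). These 3 had an unadjusted p under 0.05 and 0 members were lower at that level, against 2.81% and 1.81% of all genes. edgeR, DESeq2 and limma-voom called no member, where edgeR and limma-voom called 0% of 14769 genes and DESeq2 0.0339%. No member had all blast libraries above all sham libraries, against 0.42% of all genes.

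Ctsc in the cerebellum was highest in blast 22 and blast 8, with 8.94 and 6.79 CPM, and in sham the highest was number 33 with 4.61. These 3 libraries were also the ones high in choroid plexus genes, a list with 11 of 11 tested members higher in blast and summed levels of 53.0 to 2773 CPM in blast and 48.5 to 1245 in sham. Meningeal and fibroblast markers were higher in 10 of 10 cases (median 0.83) and ependyma markers in 7 of 7 (0.78), and their part in these differences was not tested. Without the 3 libraries Ctsc stood at 0.59 ± 0.31, Ctsz at 0.21 ± 0.11 and Atp6v0e1 at 0.18 ± 0.13, and 12 of 15 degradative genes were higher. Ctsz was above the highest sham library in 4 of 5 blast libraries. With the length trend removed 20 of 39 members were higher in place of 25, and the median was 0.00 in place of 0.03.

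**Figure D5:**
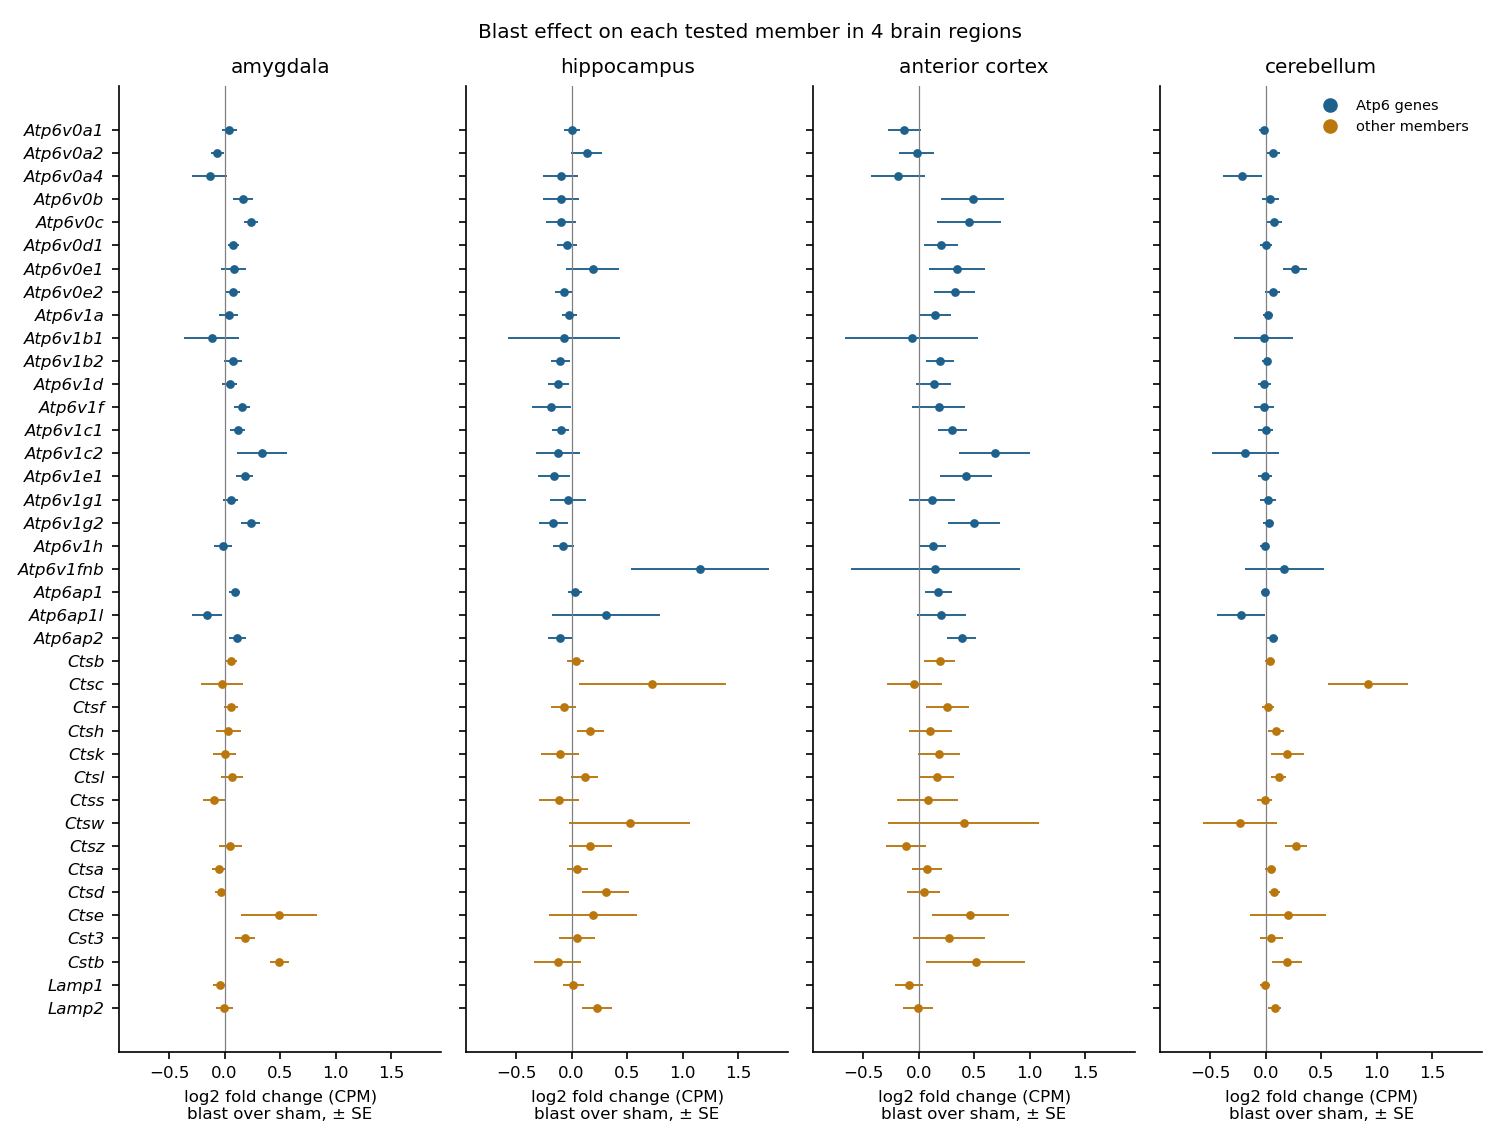
Difference between blast and sham (log2 fold change ± SE) of each tested member in the 4 regions, in order of role. Blue points are Atp6 genes and ochre points the other members. Points lie mostly right of 0 in the amygdala (26 of 37) and the anterior cortex (31 of 39), and no point passed an adjusted p of 0.05.

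Averaged over the 4 regions (limma-voom), 36 of 39 members were higher in blast, with a median of 0.08 against 0.01 over all genes. The 4 with an unadjusted p under 0.05 were Atp6ap2 (0.11 ± 0.05), Atp6v0e1 (0.22 ± 0.10), Cstb (0.30 ± 0.14) and Atp6v1fnb (0.71 ± 0.33), and 0 were lower, against 4.1% and 4.26% of all genes. Atp6v1fnb had few counts, with 65 in blast and 30 in sham libraries of the hippocampus in all. In the edgeR model of all libraries its difference was 1.15 in the hippocampus and 0.14 to 0.17 in the other regions. The mean of these edgeR values lies below the limma-voom value of 0.71, so the models differed for this gene. No member was called, with a smallest adjusted p of 0.556, and 0.00611% of all genes were. Members do not vary independently and the regions share title numbers, so this count is no test. Without the 7 hippocampus and anterior cortex libraries in doubt 29 of 39 members were higher and the median was 0.03.

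Whether the blast effect differed between regions was tested by the interaction in 1 edgeR model of 8 group means. Atp6ap2, Atp6v1c1 and Atp6v1g2 had an unadjusted p under 0.05, or 3 of 39 members against 4.76% of all genes, and no member passed adjustment (smallest adjusted p = 1.00), as did no gene of the series (0%). All 3 had their highest difference in the anterior cortex (0.38, 0.30 and 0.49 in this model) and their lowest in the hippocampus (-0.12, -0.11 and -0.18). Without the 4 anterior cortex libraries that stood apart, Atp6ap2 and Atp6v1c1 were at 0.22 and 0.10 in that region's own fit. In the hippocampus sham 14 was the highest sham library for all 3, with Atp6v1g2 at 409 CPM against 245 to 304 in the other sham libraries.

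Other lysosomal genes gave the setting for the members in the amygdala. Of 34 lysosomal hydrolases 19 were higher in blast (median 0.01), of 31 genes of the lysosomal membrane, transport and sorting 20 (0.03), of 15 genes of pump assembly and regulation 10 (0.02), of 18 genes of the TFEB family and of mTORC1 at the lysosome 9 (-0.01), and of 7 other protease inhibitors 4 (0.06). By edgeR none passed adjustment. At an unadjusted p under 0.05, 3 hydrolases were higher and 0 lower, 3 and 1 of the membrane genes, and 2 and 0 of the assembly genes. Of the TFEB and mTORC1 genes 3 and 2 were, and of the inhibitors 1 and 0. Over all genes 4.22% were higher and 4.45% lower at that level. Asah1, the acid ceramidase, was at 0.19 ± 0.06 (adjusted p = 0.462). Lamtor5, a subunit of the complex that holds mTORC1 on lysosomes, was at 0.37 ± 0.12 (0.459). All blast values lay above all sham values for 1 hydrolase, Asah1, and for 2 membrane genes, against 0.785% of all genes. Those 2 were Gnptg at 0.15 ± 0.06 and Tmem106b at 0.13 ± 0.06. Rogdi, a protein of the complex that assembles the pump, was at 0.20 ± 0.07, and Scarb2, the receptor that brings glucocerebrosidase to lysosomes, at -0.30 ± 0.12.

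In the hippocampus 28 of 34 hydrolases were higher (median 0.10), with Tpp1, a lysosomal peptidase, at 0.29 ± 0.14. In the cerebellum 29 of 34 were (median 0.05), with Man2b1, the lysosomal alpha-mannosidase, at 0.17 ± 0.06. In the anterior cortex 21 of 34 were (0.10), and among the membrane genes Mcoln1, the calcium channel of the lysosomal membrane, stood at 0.34 ± 0.11. No hydrolase passed adjustment in these regions. At an unadjusted p under 0.05 there were 0 in the hippocampus and anterior cortex and 3 higher in the cerebellum. Of all genes 0.97%, 1.88% and 2.81% were higher at that level in hippocampus, anterior cortex and cerebellum. The shares lower were 0.916%, 2.43% and 1.81% in the same order. Tpp1, Man2b1 and Mcoln1 had adjusted p of 0.998, 0.999 and 0.799. The hydrolase counts of hippocampus and cerebellum include the libraries high in choroid plexus genes, and the part of these libraries was not tested.

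Set by their promoters, the members with TCACGTGA had small differences of both signs in the amygdala. Ctsd and Lamp1 stood at -0.03 ± 0.05 and -0.04 ± 0.06, and Atp6v0d1 and Atp6v0e1 at 0.08 ± 0.05 and 0.08 ± 0.11. None passed adjustment by edgeR, and regulation through the match was not tested. Cstb, at 0.49, and Ctsf, at 0.06, held the shorter match.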

How the data were processed

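The authors deposited, per the file headers, 1 table of raw read counts per gene for each region, with their own log2 fold changes, p-values and gene lengths. CASAVA is named in the submitters' processing notes. Aligner, counter, annotation and build: not given in the sources used here. Groups came from the tissue and treatment labels, genes were joined by identifier, and no column of raw counts lacked a group. Library pairs within a group were compared for duplicates, and the lowest chi-square divided by its degrees of freedom was 6.30.

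Blast was compared with sham in each region by edgeR 4.0.16 (filterByExpr, TMM, two-sided quasi-likelihood F test, Benjamini-Hochberg over all genes tested). DESeq2 1.42.0, limma 3.58.1 with voom, RLE factors, other filters, removal of the length trend (spline with 5 degrees of freedom) and leaving out libraries were alternatives. The mean over regions used voom with the title number as a random block, the interaction and the sham regions edgeR, on the 20814 genes in all 4 tables. Scripts were tested on simulated data. Members, lists and tests were chosen with earlier results of these data known. Genes named were, in each comparison, the 5 members with the smallest p in each direction, 15 standing members, and up to 3 genes of other lists.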

Additional observations from a re-analysis of the deposited data

Results flagged for a closer look

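Of 120 groups of 5 libraries (15 standing members, 4 regions, 2 treatments), 13 had 1 library whose gap to the next was over 0.71 of the group's range, or 10.8%. Chance flags about 1 in 20 groups, and members of 1 library are not independent. In the amygdala these were Atp6ap1 in sham 33 (257 CPM, the other 4 from 274 to 280) and Ctsb in blast 8 (428 CPM against 435 to 438).

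In the hippocampus sham 14 was the highest of 5 for 5 members: Atp6v1b2 at 696 CPM (526 to 549 in the others), Atp6ap1 at 332 (272 to 289), Atp6ap2 at 319 (214 to 232), Cstb at 41.8 (17.99 to 22.5) and Lamp1 at 491 (355 to 388). In the anterior cortex blast 8 was the lowest for Ctsb at 315 CPM (370 to 390), Ctsl at 65.3 (89.8 to 92.0) and Cstb at 6.37 (23.1 to 24.9), and sham 14 the highest for Atp6ap2 at 159 (107 to 122). In the cerebellum blast 22 was the highest for Ctsd at 256 CPM (216 to 226) and the lowest for Ctss at 72.4 (81.2 to 84.4). No member's blast effect differed between regions in the interaction test after adjustment.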

How the results depend on the processing

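The counts of members called by blast were 0 in each region, in the mean over regions and in the interaction under all alternatives run, apart from 1 member (Cstb) in the amygdala by DESeq2. Leaving out 1 library at a time gave member medians of 0.05 to 0.07 in the amygdala, -0.04 to 0.08 in the hippocampus, 0.14 to 0.25 in the anterior cortex and 0.01 to 0.06 in the cerebellum (with voom the hippocampus median was 0.00), and leaving out 1 title number 0.06 to 0.12 in the mean over regions. Of 57 same-numbered pairs of libraries 19 correlated over 0.1 in their deviations (median 0.07), against 24 of 243 others (median -0.02). Same-numbered libraries thus resembled each other more, but not in every pair. In the main fits the numbers entered only as a random block in the mean over regions. Without the replicate block the mean over regions had 0 members called and a median of 0.08, and with a fixed replicate block the interaction also called 0. Between sham regions the F test called 28 members with the replicate block and 25 to 29 with 1 number left out, and the count higher in the cerebellum was 1 with the block. With the length trend removed the counts called higher were 7 in the hippocampus, 2 in the anterior cortex and 7 in the cerebellum. Those called lower were 3, 8 and 11 in the same order. Without the 4 sham libraries in doubt the counts called were 8 higher and 4 lower in the hippocampus and 0 lower in the anterior cortex. With 1 number left out they ran from 2 to 4 higher and 1 to 3 lower in the hippocampus, 0 to 1 higher and 2 to 17 lower in the anterior cortex, and 1 to 2 higher and 11 to 16 lower in the cerebellum. The cause of these shifts was not tested. Without the 3 cerebellum libraries high in choroid plexus genes, an alternative added after seeing the data, 0 members were called.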
